A study of Mus musculus with 18 samples.

Results

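The interferon-gamma induced GTPases described here are 10 mouse genes chosen by name, 5 guanylate-binding proteins (*Gbp2*, *Gbp3*, *Gbp6*, *Gbp7* and *Gbp8*) and 5 immunity-related GTPases (*Irgm1*, *Irgm2*, *Igtp*, *Iigp1* and *Ifi47*), of 47729 genes in the count table. All 10 had enough reads to be tested, among 16937 genes that did. RNA-seq of colon was compared between C57BL/6 wild-type (WT) mice and *Cldn2* knockout (*Cldn2*KO) mice, which lack claudin-2, a tight junction protein that forms a paracellular channel for small cations and water. Each genotype was sampled untreated (control), after recovery from colitis caused by dextran sodium sulfate (DSS recovery), and with colitis-associated tumors caused by azoxymethane and DSS (AOM/DSS; 10 mg/kg AOM and 3 cycles of 2.5% DSS per the labels, which give no DSS dose for the recovery mice). Each of the 6 groups had 3 libraries. The WT animals were littermates of the knockouts by the study's methods, the labels give no age, and they do not say that each library came from a separate mouse, so p-values measure the spread between these libraries.

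The libraries held 17.6 to 27.4 M reads assigned to genes, with a median of 19.6 M. *Cldn2* stood at 44.5 to 504 CPM (reads per M reads of the library, scaled by TMM) in the WT libraries and at 0.0554 to 0.557 CPM in the *Cldn2*KO libraries, as labelled. Several libraries stood apart in ways that touch the results below. The tissue is labelled colon, and the study describes the recovery samples as distal colon. The summed level of genes of the distal colon, among them posterior Hox genes, was 3.53 CPM in WT control replicate 2 and 0.688 to 1.51 CPM in all 6 recovery libraries, against sums of 760 and 767 CPM in replicates 3 and 1 of that group, 738 to 865 CPM in *Cldn2*KO controls and 496 to 690 CPM in AOM/DSS. Recovery and position along the colon therefore cannot be told apart in comparisons of recovery with control. *Xist*, an X-linked RNA of female cells, was above 10 CPM in replicates 2 and 3 of WT recovery, *Cldn2*KO recovery and *Cldn2*KO AOM/DSS, and in no library of the other groups. *Xist* status was thus uneven between the genotypes in AOM/DSS, but not in controls or recovery. It was also uneven between recovery and control in both genotypes, and between AOM/DSS and control in *Cldn2*KO.

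Guanylate-binding proteins (GBPs) and immunity-related GTPases (IRGs) are made in large amounts when interferon-gamma, secreted mainly by T cells and natural killer cells, binds its receptor and sets off JAK kinase signaling, which in turn induces IRF1. The IRGM proteins (*Irgm1*, *Irgm2* and *Igtp*, also called *Irgm3*) sit on the cell's own membranes and hold the other IRGs inactive there. The effector IRGs and the GBPs load onto vacuoles that hold pathogens, break them open or mark them for autophagy, and GBPs also help to activate inflammasomes. In the intestine these GTPases act in epithelial cells as well as in macrophages.

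The genes lie in few places (GRCm38, GENCODE M21). *Gbp7* (chr3:142530342-142550149), *Gbp3* (chr3:142560026-142573209) and *Gbp2* (chr3:142620602-142638008) lie within a GBP cluster on chromosome 3. *Gbp8* (chr5:105014150-105139540) and *Gbp6* (chr5:105270702-105293698) lie on chromosome 5. *Irgm1* (chr11:48861968-48871683), *Ifi47* (chr11:49076587-49096974), *Igtp* (chr11:58199556-58207591) and *Irgm2* (chr11:58199618-58222782) lie on chromosome 11, where the annotated exons of *Igtp* and *Irgm2* overlap by 162 bases on the same strand. Some counts are uncertain because genes share sequence. In *Gbp6*, 70.65% of the 50-base stretches of its exons recur in another gene, mainly *Gm43302* and *Gbp10*, and the shares were 18.12% in *Gbp8*, 12.74% in *Gbp7*, 11.77% in *Igtp*, 7.77% in *Irgm2*, 3.75% in *Gbp3*, 2.54% in *Ifi47*, 2.03% in *Gbp2*, 1.69% in *Iigp1* and 0.31% in *Irgm1*.

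The promoters are shown because interferon acts through short DNA motifs there, the gamma-activated site (GAS) and the interferon-stimulated response element (ISRE), to which IRFs bind. RefSeq promoter windows (GRCm38.p6) were matched for 7 of the 10 genes, *Gbp2*, *Gbp3*, *Gbp7*, *Igtp*, *Irgm1*, *Irgm2* and *Ifi47*. Within 250 bases before the start, both strands, the ISRE core, GAAA and GAAA spaced by any 2 bases, was found in 6 of the 8 windows of these genes, against 2.977% of 32851 mouse promoters searched alike. GAS, written TTCNNNGAA, was found in 3 of the 8, against 7.02% of all promoters, and 0.3318% of all promoters held both. The last 120 bases before the start are printed 5′ to 3′ on the gene's strand, with matches in capitals, for the pair with overlapping exons, for a GBP with both motifs and for the gene with neither.
Igtp, chr11:58199436-58199555, plus strand: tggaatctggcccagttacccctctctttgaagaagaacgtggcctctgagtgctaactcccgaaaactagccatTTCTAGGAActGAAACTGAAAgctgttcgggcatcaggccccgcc
Irgm2, chr11:58214857-58214976, plus strand: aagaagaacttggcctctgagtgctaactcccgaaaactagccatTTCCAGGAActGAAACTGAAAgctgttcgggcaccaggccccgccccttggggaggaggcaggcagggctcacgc
Gbp7, chr3:142530216-142530335, plus strand: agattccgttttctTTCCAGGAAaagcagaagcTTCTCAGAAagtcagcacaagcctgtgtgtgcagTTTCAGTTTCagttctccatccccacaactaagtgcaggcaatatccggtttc
Ifi47, chr11:49076467-49076586, plus strand: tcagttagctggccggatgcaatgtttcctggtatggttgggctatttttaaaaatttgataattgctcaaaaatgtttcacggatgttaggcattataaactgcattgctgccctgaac
*Igtp* and *Irgm2* each held a GAS followed by an ISRE core, a stretch of 21 bases of which 20 were identical, with T4C the only substitution (*Igtp* base first, counted from the first base of the stretch). *Gbp7* held 2 GAS matches and 1 ISRE core on the opposite strand. *Gbp2* held 1 ISRE core, and *Irgm1* and *Gbp3* each held 2 that overlap, while the second *Gbp3* window held neither motif. The *Irgm2* window precedes a RefSeq start that lies inside the GENCODE gene, whose first exon is the one that overlaps *Igtp*. The *Ifi47* window held neither motif, which says only that these letters are absent from it. A match is a description of the sequence, and binding was not measured.

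Between genes, levels were compared per length, as RPKM (CPM divided by the exonic length in kilobases), in untreated WT colon. *Gbp2* had the highest mean and the widest spread, 87.5 ± 54.8 RPKM (SD, n = 3). *Ifi47* at 46.5 ± 5.23 RPKM and *Igtp* at 40.1 ± 2.59 RPKM came next, and *Irgm2* at 24.8 ± 3.85, *Irgm1* at 24.3 ± 2.70 and *Iigp1* at 20.4 ± 6.36 RPKM followed within each other's spread. The other GBPs were lower, with *Gbp3* at 12.2 ± 3.11, *Gbp7* at 8.11 ± 2.22, *Gbp8* at 3.91 ± 0.392 and *Gbp6* at 0.833 ± 0.113 RPKM. In *Cldn2*KO controls *Ifi47* stood at 2.88 ± 1.36 RPKM, within the spread of *Gbp7* at 2.91 ± 0.204 and *Gbp3* at 2.73 ± 1.12 RPKM and below *Gbp2* at 24.9 ± 15.8, *Igtp* at 8.27 ± 3.02 and *Irgm1* at 8.0 ± 1.03 RPKM.

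**Figure D1:**
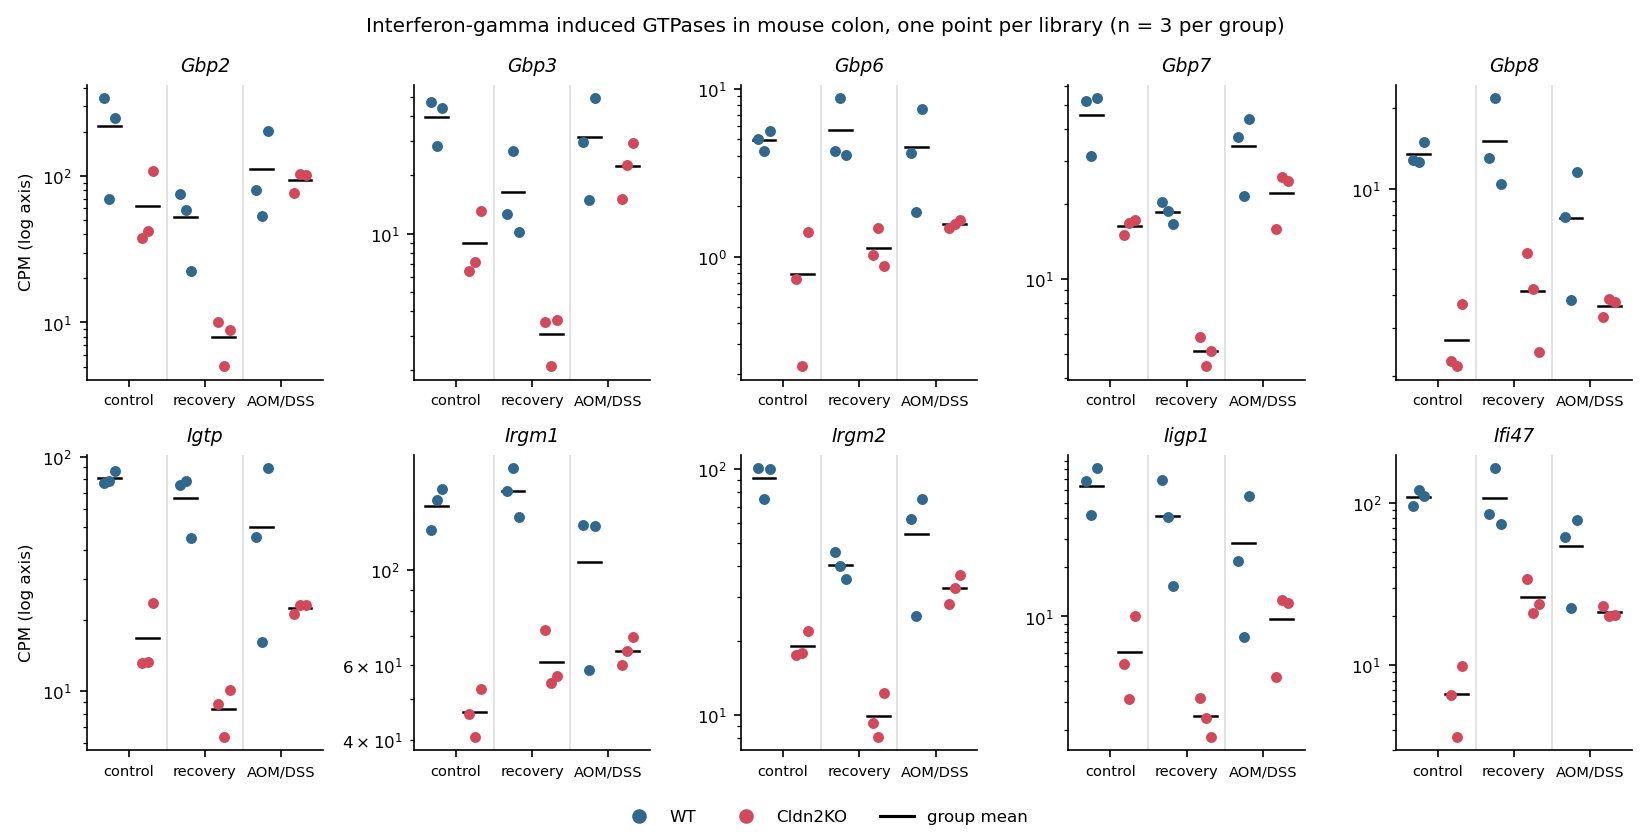
Level of each of the 10 GTPase genes in every library (log axis, CPM with trimmed-mean scaling), with 1 panel per gene, points for the 3 libraries of each of the 6 groups, and bars for group means. In controls and in DSS recovery the *Cldn2*KO points lie below the WT points, apart from *Gbp2* in controls, while in AOM/DSS they overlap for every gene but *Gbp6*.

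In untreated colon, 9 of the 10 GTPases were lower in *Cldn2*KO than in WT, by 2.79- to 16.1-fold, while 1.05% of all genes tested were called lower (edgeR quasi-likelihood test, adjusted p under 0.05). All 9 also had every *Cldn2*KO library below every WT library, which held for 10.7% of all genes tested. The median log2 fold change over the 10 was -2.27, against -0.01 over all genes. In bulk tissue, fewer cells of a type and less RNA per cell cannot be told apart.

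Among the IRGM regulators, *Irgm1* had levels of 124, 146 and 154 CPM in WT controls and of 46.0, 40.8 and 52.7 CPM in the *Cldn2*KO controls, a log2 fold change of -1.60 (SE 0.23, adjusted p = 0.00348). *Irgm2* stood at 100.1, 75.1 and 99.3 CPM in WT and at 17.5, 17.8 and 21.8 CPM in *Cldn2*KO, a change of -2.26 (SE 0.30, adjusted p = 0.00197). *Igtp* stood at 77.2, 78.9 and 87.0 CPM in WT and at 13.1, 13.3 and 23.8 CPM in *Cldn2*KO, a change of -2.28 (SE 0.44, adjusted p = 0.0208). For all 3 regulators the genotypes did not overlap and the WT libraries lay close together, WT control replicate 2 included.

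The effectors showed the largest differences. *Ifi47* (also called IRG-47) stood at 94.9, 119 and 109 CPM in WT controls and at 6.5, 3.60 and 9.90 CPM in *Cldn2*KO controls, 16.1-fold lower on the fitted scale, a log2 fold change of -4.01 (SE 0.46, adjusted p = 0.000755). *Iigp1* (Irga6, chr18:60376029-60392627), which coats parasite vacuoles, stood at 67.5, 42.1 and 81.2 CPM in WT and at 5.12, 3.10 and 10.0 CPM in *Cldn2*KO, a change of -3.39 (SE 0.72, adjusted p = 0.0319). Neither gene overlapped between genotypes, and *Cldn2*KO control replicate 3 was the highest of its group for both, as it was for all 10 GTPases.

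Of the GBPs on chromosome 3, *Gbp3* stood at 47.2, 28.2 and 43.9 CPM in WT controls and at 6.45, 7.15 and 13.1 CPM in *Cldn2*KO controls, a log2 fold change of -2.16 (SE 0.46, adjusted p = 0.0313). *Gbp7* stood at 51.9, 31.2 and 53.6 CPM in WT and at 15.1, 16.7 and 17.3 CPM in *Cldn2*KO, a change of -1.48 (SE 0.26, adjusted p = 0.0112). *Gbp2* stood at 341, 69.9 and 250 CPM in WT and at 37.6, 42.0 and 109 CPM in *Cldn2*KO. *Gbp2* was the exception among the 10 in the edgeR fit: WT control replicate 2 lay below *Cldn2*KO control replicate 3, and the change of -1.81 (SE 0.62) did not pass the test (adjusted p = 0.199). DESeq2 and limma-voom each called all 10 lower, *Gbp2* included, and 688 and 2552 of all genes. All limma-voom fits here use sample weights, which give less weight to libraries that vary more. Of the GBPs on chromosome 5, *Gbp8* stood at 12.8, 12.6 and 15 CPM in WT and at 2.27, 2.16 and 3.71 CPM in *Cldn2*KO, a change of -2.31 (SE 0.40, adjusted p = 0.0105). *Gbp6* rested on 65 to 128 reads in WT and 4 to 26 in *Cldn2*KO, at 5.03, 4.25 and 5.59 CPM against 0.739, 0.222 and 1.40 CPM, a change of -2.65 (SE 0.56, adjusted p = 0.0307). Both were apart between genotypes, with the sharing of sequence given above for *Gbp6* in mind. Without *Cldn2*KO control replicate 1 or replicate 2 the calls in controls fell from 9 to 3 (*Irgm1*, *Irgm2* and *Ifi47*), as calls over all genes fell from 199 to 25 and 47. The fold changes were about as large, with a median over the 10 of -2.16 and -2.15. Without WT control replicate 2 the count was 9.

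**Figure D2:**
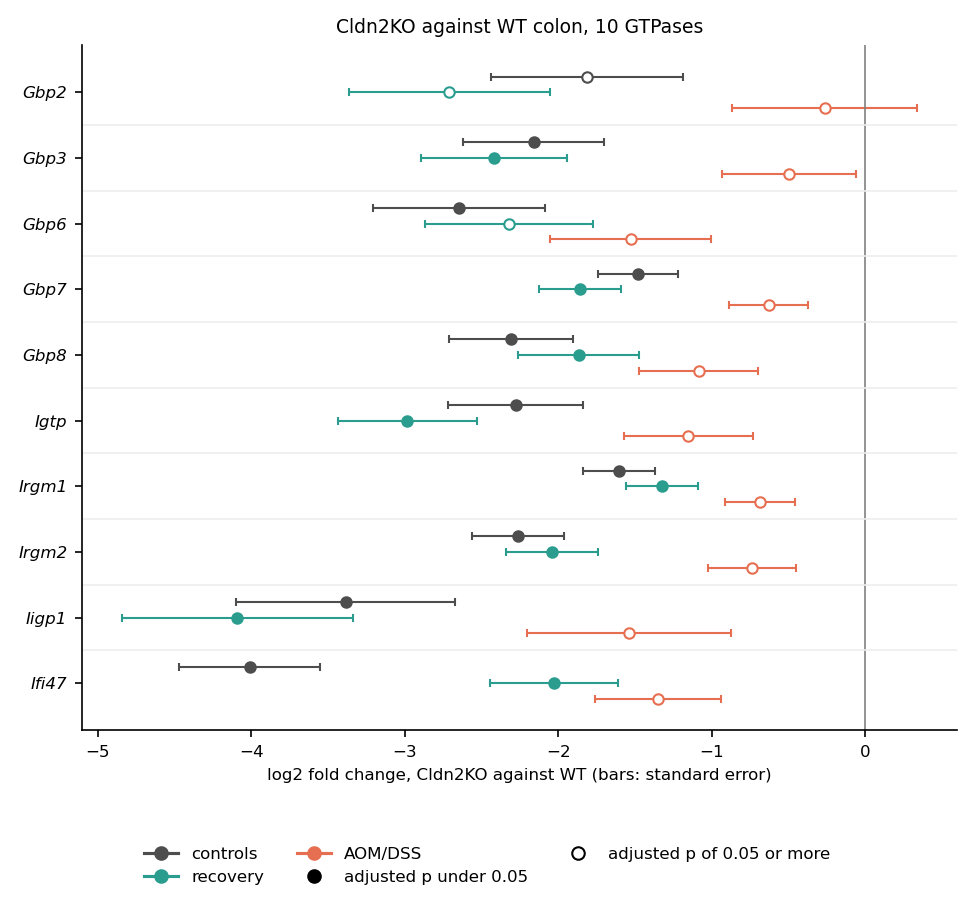
Log2 fold change of *Cldn2*KO against WT (x axis) for each GTPase gene in controls, DSS recovery and AOM/DSS, with bars of 1 SE and filled symbols where the edgeR adjusted p was under 0.05. Values run from -4.01 to -1.48 in controls, from -4.09 to -1.32 in recovery and from -1.54 to -0.26 in AOM/DSS.

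Markers of T, NK, B and plasma cells also differed between the untreated genotypes. Of 16 T and natural killer (NK) cell markers tested, 4 were lower in *Cldn2*KO controls and none was higher, while 15 were below 0 and 15 had an unadjusted p under 0.05, with a median of -2.75. Those called were *Gzmb* at -4.64, *Cd3e* at -4.28, *Nkg7* at -4.11 and *Cd8a* at -3.89 on the log2 scale. The summed T and NK marker level was 42.4, 270 and 76.8 CPM in WT controls and 25.6, 22.1 and 57.9 CPM in *Cldn2*KO controls, so that the ranges overlapped. B and plasma cell markers were called lower for 3 of 9, with sums of 742 to 908 CPM in WT and 14 to 171 CPM in *Cldn2*KO, and none of 11 macrophage markers was called, with sums of 280 to 414 CPM in WT and 151 to 437 CPM in *Cldn2*KO. None of 8 smooth muscle markers was called, with all 8 above 0 at a median of 0.91, and sums of 4008 to 5943 CPM in WT and 8019 to 10887 CPM in *Cldn2*KO. Epithelial markers summed to 27603, 71230 and 26881 CPM in WT controls and 25234 to 29089 CPM in *Cldn2*KO controls. WT control replicate 2 also differed in neutrophil markers, which summed to 0.916 CPM there and to 518 and 466 CPM in replicates 1 and 3. The part of these cells in the GTPase differences was not tested.

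In DSS recovery, 8 of the 10 GTPases were lower in *Cldn2*KO than in WT, where 0.425% of all genes tested were called lower. All 10 had every *Cldn2*KO library below every WT library, against 11.7% of all genes tested, and the median log2 fold change over the 10 was -2.18. *Gbp2* and *Gbp6* did not pass the edgeR test, with changes of -2.71 (SE 0.66, adjusted p = 0.0603) and -2.32 (SE 0.55, adjusted p = 0.0559). DESeq2 and limma-voom each called all 10 lower in recovery, and 1370 and 1902 of all genes. Without WT recovery replicate 2, 3 of the 10 were called (*Gbp7*, *Igtp* and *Irgm2*) and without *Cldn2*KO recovery replicate 2 none was, as calls over all genes fell from 165 to 16 and 3. The median fold change over the 10 was then -1.90 and -2.06. With *Xist* status as a covariate 5 of the 10 were called, and 56 of all genes, at a median of -2.18.

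Among the regulators in recovery, *Irgm1* stood at 153, 172 and 133 CPM in WT and at 72.3, 54.5 and 56.4 CPM in *Cldn2*KO, a log2 fold change of -1.32 (SE 0.23, adjusted p = 0.0211). *Irgm2* stood at 45.8, 40.1 and 35.7 CPM in WT and at 9.26, 8.11 and 12.2 CPM in *Cldn2*KO, a change of -2.04 (SE 0.30, adjusted p = 0.0083). *Igtp* stood at 75.4, 78.5 and 44.9 CPM in WT and at 8.78, 6.35 and 10.0 CPM in *Cldn2*KO, a change of -2.98 (SE 0.45, adjusted p = 0.0114). WT recovery replicate 3 was the lowest WT library for all 10 GTPases and still lay above every *Cldn2*KO recovery library.

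Of the effectors in recovery, *Iigp1* stood at 69.1, 40.6 and 15.4 CPM in WT and at 3.16, 2.36 and 1.82 CPM in *Cldn2*KO, 17.1-fold lower, a log2 fold change of -4.09 (SE 0.75, adjusted p = 0.0271). *Ifi47* stood at 85.6, 163 and 73.7 CPM in WT and at 34.0, 21 and 23.8 CPM in *Cldn2*KO, a change of -2.03 (SE 0.42, adjusted p = 0.0405). *Iigp1* varied more than 4-fold among the WT libraries, whereas *Ifi47* in *Cldn2*KO recovery lay above all 3 *Cldn2*KO controls. For the GBPs, *Gbp3* stood at 12.6, 26.5 and 10.2 CPM in WT and at 3.53, 2.09 and 3.59 CPM in *Cldn2*KO, a change of -2.42 (SE 0.48, adjusted p = 0.0327). *Gbp7* stood at 20.4, 18.7 and 16.7 CPM in WT and at 5.83, 4.45 and 5.11 CPM in *Cldn2*KO, a change of -1.86 (SE 0.27, adjusted p = 0.00824). *Gbp8* stood at 13, 21.9 and 10.4 CPM in WT and at 5.73, 4.22 and 2.46 CPM in *Cldn2*KO, a change of -1.87 (SE 0.39, adjusted p = 0.0418). Both groups of *Gbp7* were narrow, and the genotypes were apart for each of these 3 genes. *Gbp2* stood at 75.4, 58.6 and 22.3 CPM in WT and at 10.1, 5.01 and 8.85 CPM in *Cldn2*KO. *Gbp6* stood at 4.23, 8.82 and 4.02 CPM in WT and at 1.02, 1.48 and 0.885 CPM in *Cldn2*KO. No T or NK marker was called between the genotypes in recovery, though all 16 were below 0 with a median of -0.80, and their sums were 99.0, 253 and 99.8 CPM in WT and 77.6, 74.2 and 54.8 CPM in *Cldn2*KO. B and plasma cell markers summed to 91.9 to 132 CPM in WT recovery and 17.3 to 21.2 CPM in *Cldn2*KO recovery, with 1 of 9 called. Macrophage markers summed to 86.6 to 129 CPM in WT recovery and 64.2 to 76.3 CPM in *Cldn2*KO recovery, with none of 11 called, 10 below 0 and a median of -0.51. Epithelial markers summed to 42366 to 72159 CPM in WT recovery and 29933 to 55914 CPM in *Cldn2*KO recovery. Their part in the GTPase differences was not tested.

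In AOM/DSS colon, none of the 10 GTPases passed the test between genotypes, by edgeR, DESeq2 or limma-voom, and 0.00590% of all genes tested were called by edgeR in either direction. All 10 log2 fold changes were below 0, with a median of -0.91, and 8 of them and 949 of all genes had an unadjusted p under 0.05 (smallest adjusted p = 0.862). With *Xist* status as a covariate the median was -0.89, none of the 10 was called and 1 of all genes was. The largest were *Iigp1* at -1.54 (SE 0.67), *Gbp6* at -1.53 (SE 0.53) and *Ifi47* at -1.35 (SE 0.41), and the smallest was *Gbp2* at -0.26 (SE 0.60). Only *Gbp6* was apart, at 4.16, 1.84 and 7.56 CPM in WT and 1.47, 1.56 and 1.65 CPM in *Cldn2*KO, and 6.35% of all genes tested had every *Cldn2*KO library below every WT library.

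The WT AOM/DSS libraries were unlike each other. *Igtp* stood at 45.4, 16.2 and 89.0 CPM in WT and at 21.2, 23.2 and 23.3 CPM in *Cldn2*KO. *Ifi47* stood at 61.4, 22.6 and 78.0 CPM in WT and at 23.0, 20.2 and 20.4 CPM in *Cldn2*KO. *Irgm1* stood at 127, 58.6 and 126 CPM in WT and at 60.0, 64.7 and 69.8 CPM in *Cldn2*KO. WT AOM/DSS replicate 2 was the lowest of its group for all 10 genes, within or below the *Cldn2*KO range for 9 of them, and replicate 3 was the highest for 9 of the 10. *Iigp1* stood at 22.0, 7.52 and 55.3 CPM in WT and at 4.23, 12.7 and 12.1 CPM in *Cldn2*KO, *Irgm2* at 62.5, 25.1 and 75.3 CPM against 28.2, 32.6 and 37.0 CPM, and *Gbp3* at 29.6, 14.9 and 49.6 CPM against 15.1, 22.5 and 29.1 CPM. In these genes too, the genotypes overlapped only through WT AOM/DSS replicate 2. *Gbp2* stood at 80.6, 53.6 and 201 CPM in WT and at 76.2, 103 and 101 CPM in *Cldn2*KO, *Gbp7* at 37.3, 21.6 and 43.9 CPM against 16, 25.7 and 24.7 CPM, and *Gbp8* at 7.84, 3.85 and 11.6 CPM against 3.33, 3.86 and 3.77 CPM. The median difference moved with single WT libraries, to -1.25 without WT AOM/DSS replicate 2 and to -0.48 without replicate 3. It was -0.20 by limma-voom, which weights the libraries unequally, and no GTPase was called in these fits. The T and NK markers summed to 50.3, 49.9 and 72.1 CPM in WT AOM/DSS and to 34.3, 34.9 and 31.5 CPM in *Cldn2*KO AOM/DSS, with none of 16 called and a median of -1.01. None of 6 neutrophil markers was called at a median of -3.07, with sums of 219 to 592 CPM in WT and 211 to 286 CPM in *Cldn2*KO, and none of 8 smooth muscle markers was, with all 8 above 0 at a median of 1.09. Dendritic cell markers summed to 7.79 to 10.6 CPM in WT and 4.89 to 5.45 CPM in *Cldn2*KO. B and plasma cell markers summed to 261 to 485 CPM in WT and 157 to 352 CPM in *Cldn2*KO. Their part in the GTPase differences was not tested.

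The change in the genotype difference between treatments was tested directly as an interaction. Between recovery and controls, no GTPase was called by edgeR (1 at an unadjusted p under 0.05, as were 3141 of all genes), and 0.130% of all genes tested were called. The one was *Ifi47*, whose difference was smaller in recovery by 1.98 on the log2 scale (SE 0.58, adjusted p = 0.108). DESeq2 (adjusted p = 0.0212) and limma-voom (adjusted p = 0.00794) each called *Ifi47* and no other of the 10, and 931 and 1762 of all genes. Between AOM/DSS and controls, all 10 differences were smaller in AOM/DSS, by a median of 1.38, with 6 at an unadjusted p under 0.05 (1429 of all genes) and none called by edgeR, where 0.0118% of all genes tested were called. *Ifi47* at 2.66 (SE 0.59, adjusted p = 0.298) and *Irgm2* at 1.53 (SE 0.41, adjusted p = 0.355) are examples, and DESeq2 called *Ifi47* alone (87 of all genes) while limma-voom called all 10 (299 of all genes), at a median of 2.47. Between AOM/DSS and recovery, the 10 interactions ran from 0.64 to 2.56, 6 had an unadjusted p under 0.05 (732 of all genes), and edgeR, DESeq2 and limma-voom called none, with edgeR calling 0% of all genes tested.

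**Figure D3:**
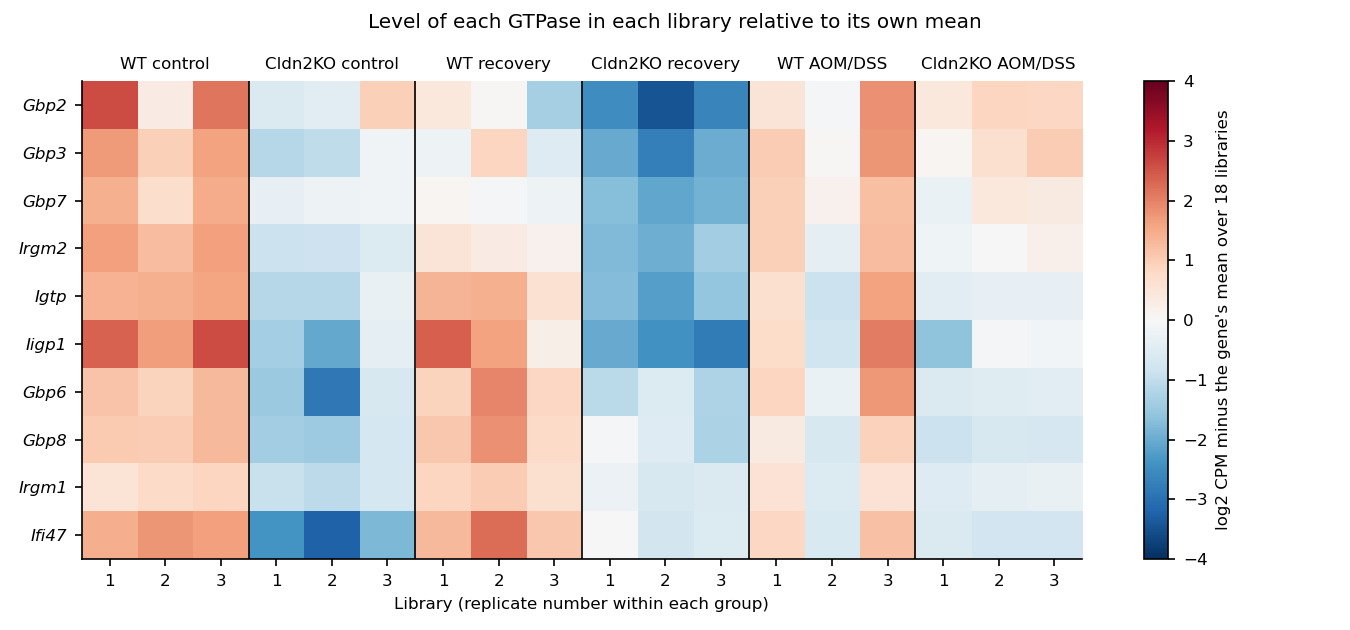
Level of each GTPase gene (rows) in each of the 18 libraries (columns, by group) as log2 CPM (2 reads added before the log) minus the gene's own mean over all libraries. *Gbp2*, *Gbp3*, *Gbp7*, *Igtp*, *Irgm2* and *Iigp1* have their lowest group mean in *Cldn2*KO recovery, while *Gbp6*, *Gbp8*, *Irgm1* and *Ifi47* have it in *Cldn2*KO controls.

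The 10 genes did not move alike with DSS recovery. In WT, recovery libraries were lower than controls for 3 of the 10, where 12.2% of all genes tested were called lower: *Gbp2* at -2.08 (SE 0.63, adjusted p = 0.0293), *Gbp7* at -1.29 (SE 0.26, adjusted p = 0.00367) and *Irgm2* at -1.17 (SE 0.29, adjusted p = 0.0107). *Gbp3* had a change of -1.28 (SE 0.44, adjusted p = 0.0502). *Gbp3*, *Gbp7* and *Irgm2* had all recovery libraries below all controls, as 20.9% of all genes tested did, while *Gbp2* overlapped, with WT recovery replicate 1 at 75.4 CPM above WT control replicate 2 at 69.9 CPM. The remaining 6 ran from -0.61 for *Iigp1* to 0.19 for *Gbp6*, with *Ifi47* at -0.01 and *Irgm1* at 0.11. Without WT recovery replicate 3 only 1 of the 10 was called, as calls over all genes fell from 3767 to 2370. In *Cldn2*KO, 4 of the 10 were lower in recovery, where 10.0% of all genes tested were called lower: *Gbp2* at -2.98 (SE 0.66, adjusted p = 0.00666), *Gbp7* at -1.67 (SE 0.27, adjusted p = 0.000935), *Gbp3* at -1.54 (SE 0.47, adjusted p = 0.0318) and *Irgm2* at -0.95 (SE 0.29, adjusted p = 0.0342). Without *Cldn2*KO control replicate 3 or *Cldn2*KO recovery replicate 1 or 2, the lower calls went from 4 to 2, with 1972, 2578 and 2106 calls over all genes against 3291. In the opposite direction, *Ifi47* was 3.94-fold higher in *Cldn2*KO recovery than in *Cldn2*KO controls, a change of 1.98 (SE 0.43, adjusted p = 0.00537), where 9.43% of all genes tested were called higher. A fit with a yes or no covariate for *Hoxb13* above 10 CPM called none of the 10 in either genotype, and 1477 of all genes in WT and 133 in *Cldn2*KO. In it *Gbp2* was at -0.42 in WT and -0.90 in *Cldn2*KO, and *Ifi47* in *Cldn2*KO at 1.76 (adjusted p = 0.339). Apart from WT control replicate 2 the covariate splits these libraries as recovery does, so that the fit cannot separate recovery from position. With *Xist* status as a covariate instead, 2 of the 10 were called in WT and 4 in *Cldn2*KO, and 2359 and 1887 of all genes. The medians were then -0.35 and -0.96.

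**Figure D4:**
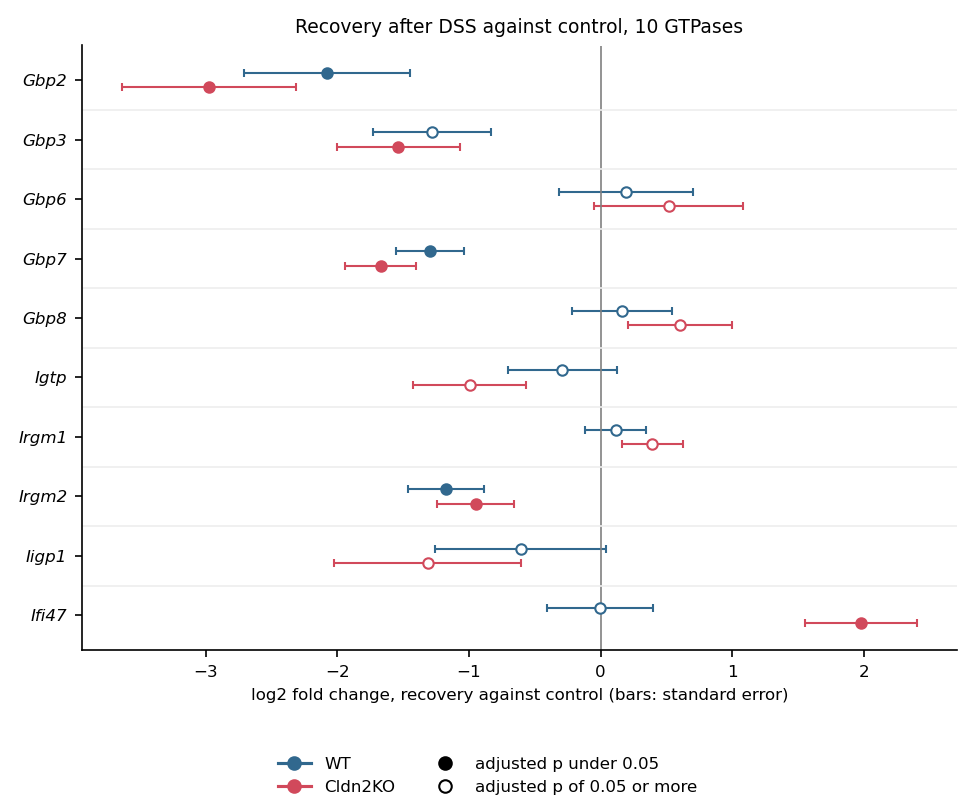
Log2 fold change of DSS recovery against control (x axis) for each GTPase gene in WT and in *Cldn2*KO, with bars of 1 SE and filled symbols where the edgeR adjusted p was under 0.05. *Gbp2*, *Gbp7* and *Irgm2* lie below 0 and are filled in both genotypes, and *Ifi47* lies at -0.01 in WT and at 1.98 in *Cldn2*KO.

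GBPs are listed here by chromosome, a split made after the values were seen, and the difference between the clusters was not tested. *Gbp2b* and *Gbp5*, the other GBPs of the chromosome 3 cluster, were lower in recovery in WT (-2.84 and -2.56) and in *Cldn2*KO (-3.61 and -2.03), as *Gbp2* and *Gbp7* were. On chromosome 5, *Gbp6*, *Gbp8*, *Gbp4* and *Gbp9* were at 0.19, 0.16, -1.14 and -1.14 in WT and at 0.52, 0.61, -0.51 and -0.31 in *Cldn2*KO, and none of the 4 passed the test in either genotype. *Gbp10* and *Gbp11* of that cluster had too few reads to be tested. Macrophage markers also moved, with 8 of 11 in WT and 7 of 11 in *Cldn2*KO called lower in recovery. Smooth muscle markers were called lower for 4 of 8 in WT and 8 of 8 in *Cldn2*KO (medians -1.74 and -2.94), and B and plasma cell markers for 6 of 9 and 3 of 9 (medians -3.26 and -3.03). Of 16 T and NK markers, 6 were called higher in *Cldn2*KO recovery than in *Cldn2*KO controls. Their part in the GTPase changes was not tested.

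With AOM/DSS, no GTPase was called against controls by edgeR in either genotype, while 10.4% of all genes tested were called in WT and 0.195% in *Cldn2*KO. The signs were opposite. In WT all 10 log2 fold changes were below 0, with a median of -0.72 (-0.32 without WT AOM/DSS replicate 2, -1.13 without replicate 3, and -1.50 by limma-voom). An unadjusted p under 0.05 was found for 2 of them and for 5069 of all genes, and the smallest adjusted p was that of *Irgm2* (-0.75, adjusted p = 0.0944). In *Cldn2*KO all 10 were above 0, with a median of 0.63 (1.09 without *Cldn2*KO control replicate 3), and 3 of them and 2573 of all genes had an unadjusted p under 0.05. The largest were *Ifi47* at 1.67 (SE 0.42, adjusted p = 0.115) and *Gbp3* at 1.32 (SE 0.45, adjusted p = 0.19). In *Cldn2*KO, 5 of the 10 lay wholly above the controls, which 15% of all genes tested did. With *Xist* status as a covariate the *Cldn2*KO median was 0.75, none of the 10 was called and 5 of all genes were. DESeq2 called none of the 10 in WT and 1 in *Cldn2*KO, and 3033 and 601 of all genes. Limma-voom called 9 and 3 of the 10, and 2576 and 3107 of all genes. Both comparisons share their control libraries with the recovery comparisons. In WT, T and NK markers summed to 42.4 to 270 CPM in controls and 49.9 to 72.1 CPM in AOM/DSS. In *Cldn2*KO they were 22.1 to 57.9 and 31.5 to 34.9 CPM. B and plasma cell markers summed to 742 to 908 and 261 to 485 CPM in WT. In *Cldn2*KO they were 14 to 171 and 157 to 352 CPM. Smooth muscle markers summed to 4008 to 5943 and 585 to 3113 CPM in WT. In *Cldn2*KO they were 8019 to 10887 and 2418.5 to 6144 CPM. Their part in the GTPase changes was not tested.

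Over the 6 group means, *Gbp2*, *Gbp3*, *Gbp7*, *Igtp*, *Irgm2* and *Iigp1* were highest in WT controls and lowest in *Cldn2*KO recovery, and most neighbours in that order overlapped. *Ifi47* was highest in WT controls too, at 108 ± 12.1 CPM, next to 107 ± 48.3 CPM in WT recovery, and lowest in *Cldn2*KO controls at 6.67 ± 3.15 CPM, which did not overlap the next group. *Irgm1*, *Gbp6* and *Gbp8* were highest in WT recovery, at 153 ± 19.7, 5.69 ± 2.71 and 15.1 ± 6.01 CPM, and each overlapped the next group or groups below it. Across the 18 libraries, the likeness of 2 genes was measured as the root mean square difference of their log2 levels, each centred on its own mean, smaller meaning more alike. *Gbp7* and *Irgm2* were the closest pair at 0.363, followed by *Gbp8* and *Irgm1* at 0.386 and *Igtp* and *Irgm2* at 0.442. *Gbp2* and *Ifi47* were the farthest apart at 1.81. Of the other genes tested, those nearest to the mean of the 10 were *Tap1* at 0.304, *Psmb9* at 0.400, *Psmb8* at 0.430, *H2-T10* at 0.438 and *Tnfsf10* at 0.457, against a median of 1.2 over all genes. *Tap1* carries peptides into the endoplasmic reticulum, *Psmb8* and *Psmb9* are subunits of the immunoproteasome, *H2-T10* is a nonclassical MHC class I gene and *Tnfsf10* encodes TRAIL. The libraries share genotype, treatment and depth, so these distances only describe the pattern.

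The interferon pathway around the GTPases was followed from ligand to target with lists of named genes. None of 13 interferon ligands had enough reads for the test. *Ifng*, which encodes interferon-gamma, had 0, 5 and 7 reads in WT controls and 0 in each *Cldn2*KO control, which allows a level of up to 0.0541 CPM (3 reads over the group, counting error only). It had 11, 14 and 3 reads in WT recovery, 1, 4 and 0 in *Cldn2*KO recovery, 2, 0 and 10 in WT AOM/DSS and 0, 1 and 1 in *Cldn2*KO AOM/DSS. Of 9 receptor chains and kinases, none was called between genotypes in controls or recovery. The receptor subunits *Ifngr1* and *Ifngr2* differed by 0.07 and -0.17 on the log2 scale in controls, and the kinases *Jak1* and *Jak2* by 0.12 and 0.02. In recovery these were 0.26, 0.02, 0.05 and -0.03, the 9 ran from -0.21 to 0.89, and 2 had an unadjusted p under 0.05. A list of cytokines that induce interferon-gamma and their receptors also holds *Il18bp*, an inhibitor that neutralizes the inducer IL-18. *Il18bp* was lower in *Cldn2*KO controls at -2.38 (adjusted p = 0.0404), the only call of the 8 genes tested. No inducing cytokine or receptor among them was called.

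Of 12 interferon transcription factors tested, 4 were lower in *Cldn2*KO controls and 1 in *Cldn2*KO recovery, and none was higher. *Nlrc5* and *Ciita*, the transactivators of MHC class I and class II genes, were lower in controls, with changes of -4.06 (SE 0.64, adjusted p = 0.00582) and -4.03 (SE 0.62, adjusted p = 0.00485). *Irf1* stood at 391, 362 and 357 CPM in WT controls and at 173, 189 and 209 CPM in *Cldn2*KO controls, a change of -0.96 (SE 0.18, adjusted p = 0.0146), and *Stat2* changed by -1.36 (adjusted p = 0.0257). In recovery *Ciita* was called at -4.01 (adjusted p = 0.0166). Of 9 feedback inhibitors, *Socs3* alone was called in controls (-2.24, SE 0.44, adjusted p = 0.023), none was called in recovery, and *Socs1*, which blocks the JAK kinases, was at -1.50 (adjusted p = 0.255) in controls.

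**Figure D5:**
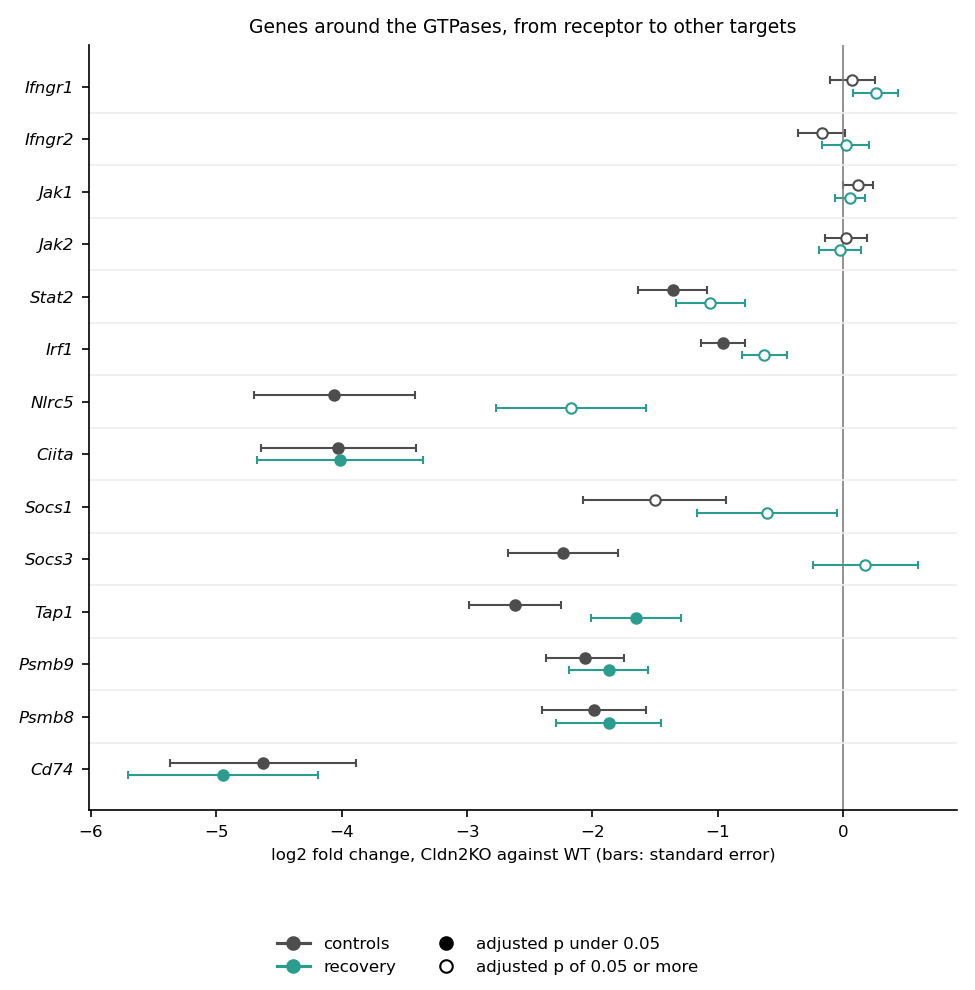
Log2 fold change of *Cldn2*KO against WT (x axis) for 14 genes around the GTPases, receptor chains and kinases at the top, then transcription factors, feedback inhibitors and other targets, in controls and in DSS recovery, with bars of 1 SE and filled symbols where the edgeR adjusted p was under 0.05. The receptor and kinase genes plotted lie between -0.17 and 0.26, *Ciita* lies at -4.03 and -4.01, and *Socs3* lies at -2.24 in controls and at 0.17 in recovery.

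Some other genes that interferon-gamma induces were lower too. Of 22 tested, 8 were lower in *Cldn2*KO controls, 6 in *Cldn2*KO recovery and none in AOM/DSS, and none was higher in any of these, with a median of -1.99 over the 22 in controls. In controls the largest changes were those of *Nos2*, the inducible nitric oxide synthase, at -5.45 (adjusted p = 0.0297), *Cd74*, the MHC class II invariant chain, at -4.63 (adjusted p = 0.00682), *Ido1*, which degrades tryptophan, at -3.52 (adjusted p = 0.0459), and *Tap1* at -2.62 (adjusted p = 0.0032). In recovery they were those of *Cd74* at -4.94 (adjusted p = 0.0131), the nucleic acid sensor *Zbp1* at -2.93 (adjusted p = 0.0271) and *Xaf1* at -2.09 (adjusted p = 0.0302). *Tnfsf10* and *H2-T10* are not among these 22. They were picked above for a pattern like that of the 10 in these same libraries, so their direction largely follows from that choice. *Tnfsf10* was at -2.86 in controls and -1.71 in recovery, and *H2-T10* was at -1.61 in controls.

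Of 18 other GTPases of both families with enough reads, 6 were lower in *Cldn2*KO controls and 3 in *Cldn2*KO recovery, with a median of -2.57 over the 18 in controls, and none was called in AOM/DSS. The largest changes in controls were those of *Tgtp1* at -4.60, *Gm4841* at -4.53, *Gm12250* (Irgb10) at -4.42 and *Gm12185* at -4.22. *Tgtp1* and *Gm12185* share sequence with their neighbours, so how their reads divide between them is uncertain. In recovery the calls were *Gm12250* at -3.34, *Gm5431* at -3.24 and *Gm4841*, which had 0 reads in *Cldn2*KO recovery and was at least 47.2-fold lower there than in WT (floor of 3 reads over the group). Among partners that carry the GTPases to vacuoles or act in autophagy, 18 were tested: *Rnf213*, a ubiquitin ligase, was lower in *Cldn2*KO controls at -1.46 (adjusted p = 0.0133), and *Sqstm1*, the autophagy receptor p62, was higher in *Cldn2*KO recovery at 0.83 (adjusted p = 0.0271). Of 10 inflammasome genes tested, none was called in controls and *Zbp1* alone in recovery.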

How the data were processed

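Per the study's methods and the labels, total RNA of mouse colon was sequenced on an Illumina NovaSeq and the authors deposited whole-number read counts per gene in 2 lanes per library, counted on GRCm38 with featureCounts. The methods name TopHat2 as aligner and the submitters' processing notes name HISAT2; versions, annotation release, strand setting and treatment of multi-mapping reads are not given in the sources used here. Reads of near-identical family members can therefore be lost or split. Lanes were summed, since they differed little beyond sampling noise. Counts were matched to GENCODE M21 names for 47224 of 47729 IDs. In R 4.3.3, edgeR 4.0.16 (TMM scaling, filterByExpr over the 6 groups, robust quasi-likelihood test, 1 mean per group over all 18 libraries) was fitted to all 16937 genes kept, with Benjamini-Hochberg adjustment over all of them and a threshold of 0.05. SE was the log2 fold change divided by the square root of F. The alternatives, with DESeq2 1.42.0 and limma 3.58.1 among them, are given in the closing part. Limma-voom was run with sample weights. The 10 genes were given by name, and they, the pathway lists and the marker lists were chosen with earlier results of these data known. Named beside the 10 were up to 4 called genes per list and comparison with the largest change, the 5 genes most like the 10 in pattern, and receptor chains, kinases and inhibitors picked for their role. Some genes of the pathway are not reported here.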

Additional observations from a re-analysis of the deposited data

How the results depend on the processing

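Of 163 counts of called GTPases under an alternative, 141 were scored as unchanged. This meant within 1.5 times, or still 0 where the main count was 0. The main count was 0 for every interaction and every AOM/DSS comparison, so many of the 141 are counts of 0 that stayed 0. Of 1630 single fold changes, 1488 kept direction and call, 73 lost and 43 gained the call, and 26 changed sign, none of them called in either fit. DESeq2 and limma-voom each called all 10 lower in controls and in recovery. In controls, leaving out 1 library gave 3 to 9 called of the 10. In recovery it gave 0 to 9, and the count was 5 with no filter, 5 with only the groups compared and 5 with *Xist* as covariate (71, 23 and 56 of all genes, against 165). In recovery against control it gave 1 to 4 in WT and 3 to 4 in *Cldn2*KO, limma-voom called 5 in WT (8125 of all genes), and the *Hoxb13* covariate left 0 in both, with 1477 and 133 calls over all genes against 3767 and 3291 (that covariate cannot be separated from recovery except through WT control replicate 2). In AOM/DSS against control limma-voom called 9 in WT (2576 of all genes), and in *Cldn2*KO DESeq2 called 1, limma-voom 3 and the fit of only the groups compared 2 (601, 3107 and 920). The recovery interaction had 1 call by DESeq2 and 1 by limma-voom (931 and 1762 of all genes), and the AOM/DSS interaction against controls 1 and 10 (87 and 299). Whether replicate numbers pair the control libraries cannot be told from 3 libraries per group. Same-number correlations in controls were 0.157, 0.002 and 0.079, with 4 of 6 libraries closest to their own number. With the replicate block 9 of the 10 were called in controls, *Ifi47* at -4.10. Fold changes of the 26 with a changed sign were as follows, in log2. For *Cldn2*KO against WT in AOM/DSS, limma-voom gave 0.49 for *Gbp2* and 0.27 for *Gbp3*, the *Xist* covariate gave 0.016 for *Gbp2*, and leaving out 1 library gave -0.61 to 0.47 for *Gbp2*. For recovery against control in WT, *Ifi47* was at 0.00094 with RLE scaling, 0.0012 by DESeq2, 0.00030 with only the groups compared and 0.085 with *Xist*, while *Gbp6* was at -0.30 by limma-voom and -0.041 with *Xist*, and limma-voom gave -0.24 for *Gbp8* and -0.0034 for *Irgm1*. Leaving out 1 library there gave -0.45 to 0.23 for *Ifi47*, -0.28 to 0.41 for *Gbp6* and -0.21 to 0.39 for *Gbp8*. In AOM/DSS against control in WT it gave -0.84 to 0.0087 for *Gbp3* and -0.72 to 0.26 for *Gbp6*. In the recovery interaction limma-voom gave 0.12 for *Gbp2*, 0.47 for *Gbp3* and 0.38 for *Iigp1*, and leaving out 1 library gave -0.53 to 0.26 for *Gbp3* and -0.11 to 1.003 for *Gbp6*. The causes were not tested. Taking either lane alone moved 59 of 60 group levels by less than 1 SD, and the exception was *Gbp6* in *Cldn2*KO AOM/DSS, at 1.83 and 1.28 CPM against 1.56. Depth limits *Gbp6* and *Ifng*, which rest on few reads.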
